A study of Mus musculus with 3 samples.

Results

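Saa1, Saa2 and Saa3 are the mouse serum amyloid A genes that respond to inflammation, and they are 3 of the 31253 genes listed for mouse liver in 3 droplet single-cell libraries. They were chosen by symbol, and their UMIs (unique molecular identifiers, each standing for 1 captured transcript end) were summed per library within marker-defined cell classes, which sets Saa1 and Saa2, known as hepatocyte genes, against Saa3, known as a myeloid gene. Saa1 and Saa2 UMIs in the files, and Saa3 UMIs in myeloid classes, were among the values that led to this choice, so their levels are given as a description. Each group is 1 library made with 10x Genomics 3′ chemistry from liver. FL_control is the library labelled GsdmdFL/FL and Ctrl, with genotype tag WT and no irradiation. FL_IR is the library labelled GsdmdFL/FL and IR, with genotype tag WT, a dose of 30 Gy and livers taken 7 days later. dHep_IR is the library labelled Gsdmd∆Hep and IR, with genotype tag gsdmd-ko and the same dose and day. Gsdmd encodes gasdermin D, which forms membrane pores in pyroptotic cell death, and the floxed allele is shared by the groups only as far as the labels say. The driver of the deletion, the exons removed, the part of the body exposed, the age of the mice, and whether 1 animal or a pool was used per library are not stated in the labels or design text. With 1 library per group there is no replicate check and no test between groups, and every interval below is a 95% interval that covers counting error only.

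Serum amyloid A proteins are small apolipoproteins that bind high-density lipoprotein. In mice Saa1 and Saa2 are made chiefly by hepatocytes in the acute-phase response, in which IL-6, IL-1 and TNF act on their promoters through STAT3, C/EBP and NF-kappaB factors. Saa3 is made by macrophages and other cells outside the hepatocyte, and Saa4 encodes a constitutive form carried by high-density lipoprotein. Albumin, transthyretin and retinol-binding protein, by contrast, are negative acute-phase proteins, whose liver transcripts fall in inflammation.

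All 4 mouse genes lie side by side on chromosome 7. In GRCm38 coordinates Saa3 (ENSMUSG00000040026) runs from 46711998 to 46715700 on the minus strand, Saa4 (ENSMUSG00000040017) from 46727998 to 46732603 on the minus strand, Saa1 (ENSMUSG00000074115) from 46740497 to 46742980 on the minus strand, and Saa2 (ENSMUSG00000057465) from 46751790 to 46754313 on the plus strand. Saa1 and Saa2 thus point away from each other across a gap of 8809 bases. The 250 bases before each RefSeq gene start (GRCm38.p6) are shown because the pair of hepatocyte genes share them almost letter for letter while Saa3 does not. The Saa1 window is chr7:46742981-46743230 on the minus strand, the Saa2 window chr7:46751583-46751832 on the plus strand and the Saa3 window chr7:46715677-46715926 on the minus strand, each printed 5′ to 3′ along its own gene. The windows of Saa2 and Saa3 run a little past the gene start in the Ensembl-numbered coordinates above, which is set further upstream. Capitals mark matches to the motifs described after the sequences.
Saa1: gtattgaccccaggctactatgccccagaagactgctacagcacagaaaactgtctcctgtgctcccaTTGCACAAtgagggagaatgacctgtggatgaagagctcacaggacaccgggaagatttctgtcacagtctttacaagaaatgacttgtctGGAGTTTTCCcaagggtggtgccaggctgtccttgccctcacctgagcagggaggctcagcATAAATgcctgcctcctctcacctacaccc
Saa2: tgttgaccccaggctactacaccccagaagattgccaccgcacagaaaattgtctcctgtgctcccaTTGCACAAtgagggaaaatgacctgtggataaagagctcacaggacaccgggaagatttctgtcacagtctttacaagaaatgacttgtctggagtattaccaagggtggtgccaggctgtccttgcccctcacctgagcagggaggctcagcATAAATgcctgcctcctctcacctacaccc
Saa3: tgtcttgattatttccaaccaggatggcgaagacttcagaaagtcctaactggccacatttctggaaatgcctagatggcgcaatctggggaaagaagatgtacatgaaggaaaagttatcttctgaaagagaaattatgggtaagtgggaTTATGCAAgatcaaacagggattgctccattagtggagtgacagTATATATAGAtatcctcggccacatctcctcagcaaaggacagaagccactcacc

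The Saa1 and Saa2 windows matched at 238 of 249 aligned bases (95.58%), against 132 of 237 (55.7%) for Saa1 and Saa3. Both strands were searched for 5 motifs. A C/EBP-like motif, TTGCNNAA, occurred in all 3 windows, at bases 69 to 76 of Saa1, 68 to 75 of Saa2 and, on the reverse strand, 152 to 159 of Saa3, and in 9.564% of all 32851 mouse gene windows of this length. The NF-kappaB consensus matched only the Saa1 window, at bases 160 to 169, and 9.549% of all windows hold it. At the matching place Saa2 differs by T165A and C168A, counted from the first printed base of Saa1 with the Saa1 base first. These are 2 of the 11 substitutions between the windows. Saa1 and Saa2 both hold ATAAAT at bases 221 to 226 (12.47% of all windows), where Saa3 has overlapping TATANA matches from base 196 to 205 (22.56% of all windows). The STAT-like motif TTCNNNGAA (7.02% of all windows) was in none of the 3. A match here is a run of letters, not a measured binding site.

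The Saa1 and Saa2 transcripts are themselves 94.39% identical (572 of 606 aligned bases), and 94.28% over their last 300 bases, where 3′ libraries read. Of the 520 possible 90-base stretches of Saa1, 10 (1.923%) also occur whole in Saa2. The labels and notes do not say how a read that fits both genes was counted, so the division of UMIs between Saa1 and Saa2 is less certain than their sum. Saa3 is 79.5% identical to Saa1.

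The libraries held 7393, 7265 and 8214 barcodes in the order FL_control, FL_IR and dHep_IR, which is the order of every set of 3 values below, with 52858425, 59228905 and 78694038 UMIs. After the filters 6458, 6545 and 7261 cells remained, with a median of 5838, 7409 and 7967 UMIs. Gsdmd itself stood at 36.4, 7.22 and 36.85 UMIs per 1000000 UMIs of the cells summed (CPM). The lowest level was thus in the library labelled FL_IR and not in dHep_IR. These sums are over all cells, and cell make-up differed, with neutrophil-like cells at 7.107, 35.78 and 25.48% of kept cells. They do not check the labels, and the cause of the low FL_IR level was not tested. Hepatocyte-like cells held 22, 2 and 1 Gsdmd UMIs, too few to check the labelled deletion, so every group name below means the library with that label. Some cell barcodes occurred in more than 1 library. There were 10 such barcodes between FL_control and FL_IR, 60 between FL_control and dHep_IR and 32 between FL_IR and dHep_IR. Among kept cells the 42 shared by FL_control and dHep_IR fell in the same class in 32 cases, and the smaller entry had a median of 1.439% of the UMIs of the larger. The 24 shared by FL_IR and dHep_IR did so in 15 cases, with a median of 41.8%. The 7 shared by FL_control and FL_IR did so in 0 cases, with a median of 47.56%. The values of hepatocyte-like cells and of neutrophil-like Saa3, which such barcodes moved most, are also given without them.

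Over all kept cells Saa1, Saa2 and Saa3 each had their highest level in the library labelled dHep_IR. Saa1 stood at 26.79, 43.9 and 97.47 CPM (1294, 2385 and 6953 UMIs). Saa2 stood at 14.97, 21 and 101.8 CPM (723, 1141 and 7259 UMIs), so Saa2 stood above Saa1 in dHep_IR alone. That order depended on the cell filter, since over all deposited barcodes of dHep_IR Saa1 had 15336 and Saa2 13620 UMIs, a ratio of 1.126 (1.1 to 1.152). Saa3 was the most abundant of the 3 in each library, at 173.3, 303.5 and 1940 CPM (8369, 16490 and 138362 UMIs). A gene is called past the fold where its CPM ratio is at least 2 and the interval excludes 1. In FL_IR against FL_control 0 of the 3 genes were past the fold, where 6.91% of all genes measured were, and 32.2% were past it downwards, with ratios of 1.638 (1.531 to 1.755) for Saa1, 1.403 (1.277 to 1.542) for Saa2 and 1.752 (1.706 to 1.798) for Saa3. Over all genes of that comparison the median log2 ratio stood at -0.598. For Saa1 and Saa2 it rested on few cells: the log2 ratios of 0.71 and 0.49 became -0.35 and -0.51 without any shared barcode, which left out the 3 FL_IR cells with the most Saa1, and 0.79 and 0.60 without only the smaller entry of each. The ratios lay past the fold over all deposited barcodes, at 1.38 and 1.05, without the cell richest in the gene in each library, at 1.68 and 1.61, and with the stricter cell filter, at 1.19 and 1.02. With TMM scaling, which adds 0.57 to every gene here, all 3 were past it, at 1.28, 1.06 and 1.38. In dHep_IR against FL_IR all 3 were past it upwards, beside 5.75% of all genes upwards and 3.66% downwards, with ratios of 2.22 (2.119 to 2.327), 4.846 (4.552 to 5.162) and 6.391 (6.288 to 6.495). In dHep_IR against FL_control all 3 were past it upwards, beside 7.3% of all genes upwards, and these comparisons share libraries, so they are not independent of each other. In bulk sums like these, more cells of a type and more RNA per cell cannot be told apart.

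**Figure D1:**
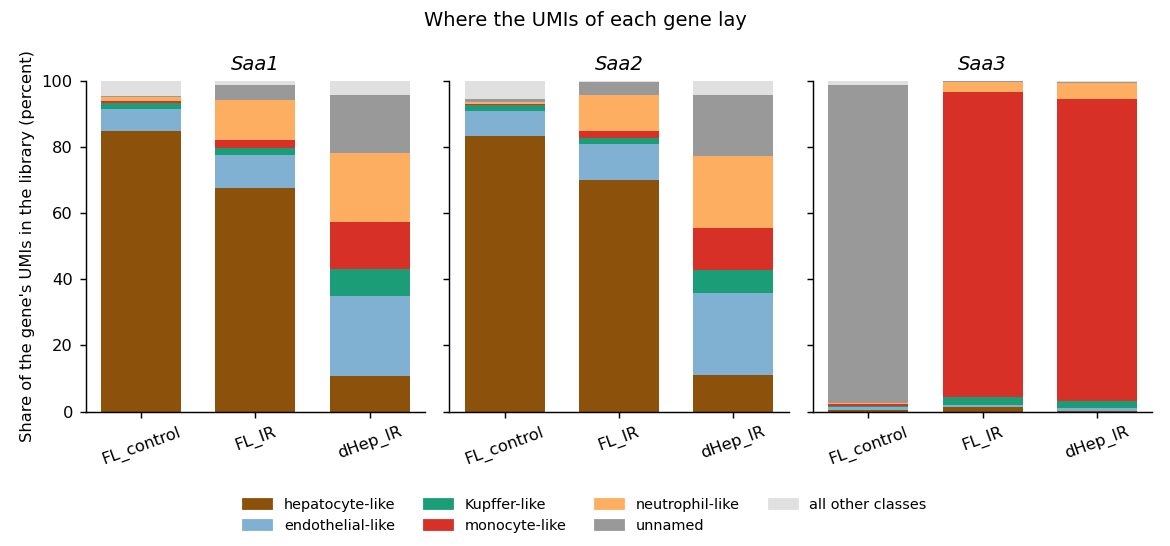
Share of each gene's UMIs (percent, vertical axis) by cell class in each library, stacked over all kept cells. Hepatocyte-like cells held 84.85% of the kept Saa1 UMIs in FL_control and 10.67% in dHep_IR, while monocyte-like cells held 0.5735% of Saa3 UMIs in FL_control and 91.66% in dHep_IR.

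The classes that held the UMIs differed between libraries. Hepatocyte-like cells held 84.85, 67.55 and 10.67% of the kept Saa1 UMIs and 83.26, 70.11 and 11.1% of the Saa2 UMIs. In FL_IR 3 cells with shared barcodes carried much of this, and without all shared barcodes the shares there were 27.96 and 34.87%, while without the smaller entries they stayed at 67.55 and 70.11%. In dHep_IR the largest shares of kept Saa1 UMIs lay in endothelial-like cells (24.18%), neutrophil-like cells (20.93%) and unnamed clusters (17.55%). This rests on the limit on mitochondrial share: hepatocyte-like cells joined with the Alb-rich barcodes over that limit held 79.3, 78.35 and 41.09% of the Saa1 UMIs of all deposited barcodes. The Saa3 UMIs of FL_control lay in other cells than those of the irradiated libraries. An unnamed cluster held nearly all of it in FL_control (96.07% of UMIs in unnamed clusters), and monocyte-like cells held 0.5735, 92.44 and 91.66%.

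**Figure D2:**
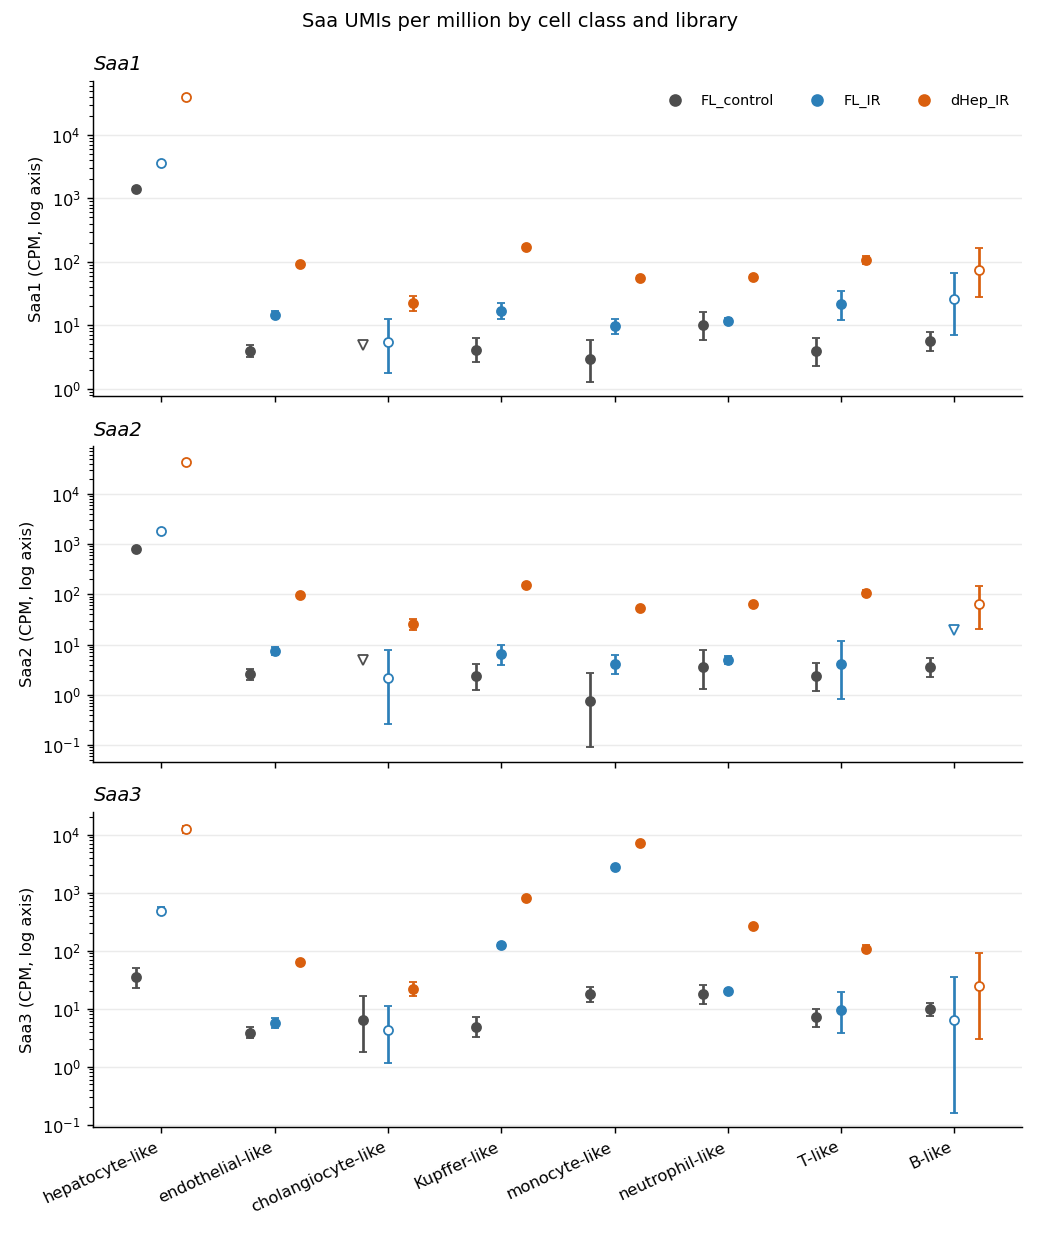
Saa1, Saa2 and Saa3 in CPM (log axis) by cell class, with 1 point per library and exact 95% Poisson intervals. Open circles are classes with under 50 cells in that library, and open triangles mark the level of 3 counts where no UMI was found. Saa1 and Saa2 are highest in hepatocyte-like cells of each library, and Saa3 in the irradiated libraries stands at 2733 and 7309 CPM in monocyte-like cells. In hepatocyte-like cells Saa3 stands at 489.8 and 12380 CPM there, above the monocyte-like level in dHep_IR, from 8 cells. In FL_IR 1 cell holds 171 of the 220 UMIs behind that point.

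Hepatocyte-like cells were few, at 104, 42 and 8 kept cells (1.61, 0.642 and 0.110% of cells), and all of them formed 1 cluster in which the 10 hepatocyte markers were detected. Their Saa1 level was 1421, 3587 and 39080 CPM (1098, 1611 and 742 UMIs), the highest of any class in each library. Saa2 followed with 779.2, 1781 and 42450 CPM. Saa3 in the same cells stood at 34.95, 489.8 and 12380 CPM, the last above the 7309 CPM of monocyte-like cells of dHep_IR. A Saa1 UMI was found in 40.38, 83.33 and 100% of them, or 39.22, 83.33 and 100% without the smaller entries of shared barcodes, at median depths of 2604, 5144 and 1724 UMIs per cell, against 3.228, 8.829 and 36.67% of endothelial-like cells, at 8428, 6134 and 5958 UMIs. Only FL_control had over 50 of these cells, so no call is made for the class. Their Saa3 rested on single cells: 1 cell held 171 of the 220 UMIs in FL_IR, and 3 cells held 229 of the 235 in dHep_IR. Without shared barcodes Saa3 stood at 205 CPM in the 39 FL_IR cells left.

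Single cells carried much of each sum. In FL_control 1 cell of 206305 UMIs had 783 Saa1 and 467 Saa2 UMIs with 8793 UMIs of Alb, the albumin gene, and the next cell had 54 Saa1 UMIs. In FL_IR 3 cells held 538, 415 and 358 Saa1 UMIs and the next 82. In dHep_IR 4 cells held 402, 128, 110 and 84 Saa1 UMIs and 489, 163, 90 and 55 Saa2 UMIs, with 173, 48, 40 and 82 Alb UMIs. Those 4 dHep_IR cells thus had more Saa1 than Alb, at 1.024 to 2.75 Saa1 UMIs per Alb UMI, while in the large cells of both floxed libraries Alb exceeded Saa1 by far. Smaller FL_IR cells overlapped that range. A cell of 6357 UMIs, its barcode in no other library, had 32 Saa1 and 23 Alb UMIs (1.391), and a cell of 4433 UMIs had 17 and 23 (0.739). The other 4 hepatocyte-like cells of dHep_IR had 9, 4, 3 and 2 Saa1 UMIs beside 199, 121, 100 and 56 Alb UMIs.

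Those other 4 cells share their barcodes with barcodes of FL_IR that had 102332, 46971, 69923 and 47633 UMIs, and they have 1.502, 2.135, 1.752 and 1.493% of those UMIs. Their Saa1 to Alb ratios of 0.030 to 0.045 lie near the 0.0545 of FL_IR hepatocyte-like cells summed and far from those of the first 4 dHep_IR cells. Likewise 2 hepatocyte-like cells of FL_control, with 35 and 33 Saa1 UMIs beside 42 and 6 Alb UMIs, share barcodes with dHep_IR barcodes that had 4028 and 1413 Saa1 UMIs. Without the smaller entry of each shared barcode, hepatocyte-like cells numbered 102, 42 and 4, with Saa1 at 1337, 3587 and 49890 CPM, Saa2 at 711.1, 1781 and 54920 CPM and Saa3 at 14.27, 489.8 and 16060 CPM. Saa1 was then at 0.0594, 0.0545 and 2.111 UMIs per Alb UMI. Without both entries FL_IR lost its 3 cells with the most Saa1, and its level was 1309 CPM (39 cells), next to 1337 in FL_control.

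The filter on mitochondrial share also bore on these cells, because it left out barcodes rich in Alb. Among barcodes with over 25% mitochondrial UMIs, those with at least 50 Alb UMIs making at least 1% of their total numbered 5, 14 and 6, with 78, 1766 and 5559 Saa1 UMIs (684.5, 4527 and 46740 CPM). The 6 barcodes of dHep_IR thus held more Saa1 than the 8 kept hepatocyte-like cells, and 2 of them held 4028 and 1413 UMIs. The highest in FL_IR held 826 Saa1 UMIs among 104052. With the kept hepatocyte-like cells and these barcodes joined, Saa1 stood at 1327, 4024 and 45680 CPM and Saa2 at 694.9, 1715 and 34780 CPM, over 109, 56 and 14 barcodes. The order of the libraries was the same as in the kept cells, with 0.0576, 0.0650 and 1.408 Saa1 UMIs per Alb UMI.

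**Figure D3:**
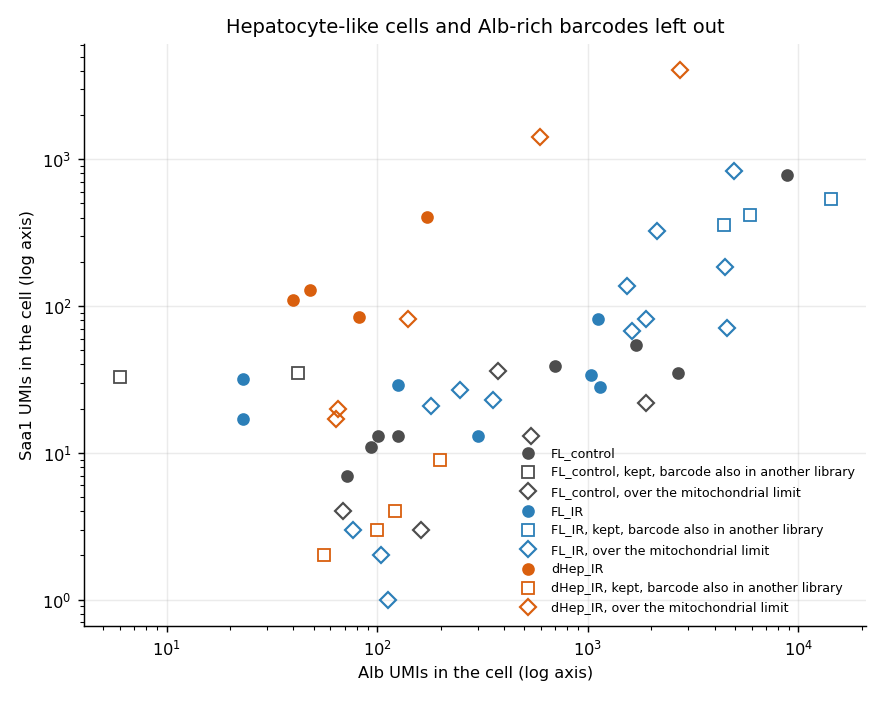
Saa1 UMIs (log axis) against Alb UMIs (log axis) in single barcodes. Filled circles are the hepatocyte-like kept cells highest in Saa1 in each library, open squares are such cells whose barcode also occurs in another library, and open diamonds are Alb-rich barcodes with over 25% mitochondrial UMIs and at least 1 Saa1 UMI. The 4 filled dHep_IR circles have 1.024 to 2.75 Saa1 UMIs per Alb UMI, and the large cells of the floxed libraries lie below that ratio. A smaller FL_IR cell, of 6357 UMIs, lies within that range at 1.391.

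The balance of Saa1 with other hepatocyte transcripts differed in the same direction. Saa1 per UMI of Apoa1, the main apolipoprotein of high-density lipoprotein, was 0.201, 0.2245 and 3.93 in hepatocyte-like cells. Saa1 per UMI of Ttr, transthyretin, was 0.129, 0.614 and 10.6, and per UMI of Serpina1c, an alpha-1 antitrypsin gene, 0.241, 0.776 and 9.16. So the ratio was highest in dHep_IR against each of the 4 reference transcripts. Without the smaller entries of shared barcodes these ratios were 0.189, 0.2245 and 11.1 for Apoa1, 0.121, 0.614 and 18.6 for Ttr and 0.226, 0.776 and 15.4 for Serpina1c, and the 4 dHep_IR cells left held 65, 39 and 47 UMIs of the 3 genes. Orm2, an orosomucoid gene, and Hpx, hemopexin, were also higher against Alb there, at 0.0025, 0.0036 and 0.063 and at 0.160, 0.151 and 0.683. Both are positive acute-phase genes and among the 5 genes most like Saa1 in these data, so their direction is no separate result. Without the smaller entries the dHep_IR values were 0.146 and 1.449. Saa4, the constitutive gene, stood at 0.0063, 0.0070 and 0.011 UMIs per Alb UMI, with 9 UMIs in dHep_IR, or 0.0146 with 5 UMIs without the smaller entries.

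Outside hepatocytes Saa1 and Saa2 were found at low levels in every named class with at least 50 cells in the library labelled dHep_IR. In endothelial-like cells Saa1 stood at 3.995, 14.62 and 92.07 CPM and Saa2 at 2.555, 7.52 and 98.2 CPM. In Kupffer-like cells, the resident macrophages of the liver, Saa1 stood at 4.149, 16.96 and 170.7 CPM and Saa2 at 2.345, 6.398 and 153 CPM. Saa1 had the same order of libraries in 3 other classes. Monocyte-like cells had 2.975, 9.681 and 56.59 CPM of Saa1, neutrophil-like cells 10.11, 11.64 and 58.11, and T-like cells 3.919, 21.46 and 108.3. In neutrophil-like cells the intervals of FL_control (5.889 to 16.19, from 17 UMIs) and FL_IR (10.34 to 13.05) overlapped, so their order there is within counting error. NK or ILC1-like cells did not have that order, with 3.862 CPM (3 UMIs), 0 UMIs in 30 cells and 109.9 CPM. Cholangiocyte-like cells, the bile duct epithelium, were lowest in dHep_IR with 22.35 CPM, and in FL_control 0 Saa1 UMIs were found in 55 of them.

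In endothelial-like cells, the largest class, dHep_IR exceeded FL_IR by a Saa1 ratio of 6.299 (5.501 to 7.24) and a Saa2 ratio of 13.06 (10.88 to 15.79), where 1.3% of all genes were past the fold upwards. FL_IR exceeded FL_control by 3.659 for Saa1 and 2.943 for Saa2, where 9.31% of genes were. Against FL_control the dHep_IR ratios were 23.05 and 38.44, beside 8.29% of genes. In Kupffer-like cells the Saa1 ratios were 4.086 for FL_IR against FL_control and 10.07 for dHep_IR against FL_IR, beside 6.52 and 2.77% of all genes past the fold. For Saa2 these ratios were 2.728 and 23.91. T-like cells had dHep_IR to FL_IR ratios of 5.045 (3.023 to 9.016) for Saa1, 26.31 (8.855 to 128.8) for Saa2 and 11.59 (5.514 to 29.25) for Saa3, where 4.13% of genes were past the fold upwards. In FL_IR against FL_control, where 3.02% of genes were, their Saa1 ratio was 5.476 (2.613 to 11.38), while the intervals for Saa2 and Saa3 included 1. Against FL_control the dHep_IR ratios were 27.62, 44.2 and 15.15, beside 3.96% of genes. Thinned to 2000 UMIs a cell, a Saa1 UMI was found in 0.8647, 3.583 and 16.39% of endothelial-like and 0.6085, 3.049 and 32.09% of Kupffer-like cells, so the order of the libraries was the same at equal depth.

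The ratio of Saa1 to Alb differed between dHep_IR and the floxed libraries in most lineages. In FL_control it was 0.0459 Saa1 UMIs per Alb UMI in Kupffer-like, 0.0448 in T-like, 0.0443 in endothelial-like, 0.0427 in B-like and 0.0426 in monocyte-like cells, with 0.0632 in hepatocyte-like and 0.0742 in neutrophil-like cells, while cholangiocyte-like cells had 0 Saa1 beside 1013 Alb UMIs. In FL_IR it was 0.0425 in Kupffer-like, 0.0545 in hepatocyte-like and 0.0988 in T-like cells, and lower, at 0.00599, in cholangiocyte-like cells. In dHep_IR it was 2.354 (2.156 to 2.573) in endothelial-like, 2.017 (1.748 to 2.332) in Kupffer-like, 2.782 (2.461 to 3.151) in monocyte-like and 2.575 (2.335 to 2.843) in neutrophil-like cells. Hepatocyte-like cells of dHep_IR had 2.111 (1.854 to 2.407) without the shared barcodes, from 4 cells, and 0.906 with them. With the Alb-rich barcodes over the mitochondrial limit joined they had 1.408 (1.355 to 1.463). In dHep_IR the ratio was 4.0 (1.966 to 8.97) in NK or ILC1-like cells, from 10 Alb UMIs, and lowest in cholangiocyte-like cells, at 0.2127. The ratio of Saa1 to Saa2 showed the same grouping, with 1.564, 1.944 and 0.9375 in endothelial-like beside 1.824, 2.014 and 0.9206 in hepatocyte-like cells, where it was 1.909, 2.347 and 1.313 once the Alb-rich barcodes over the mitochondrial limit were joined. Alb itself was found in endothelial-like cells at 90.26, 193.8 and 39.11 CPM. Free RNA was not removed from these counts, and its part in the Saa1 and Saa2 levels outside hepatocytes was not tested.

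**Figure D4:**
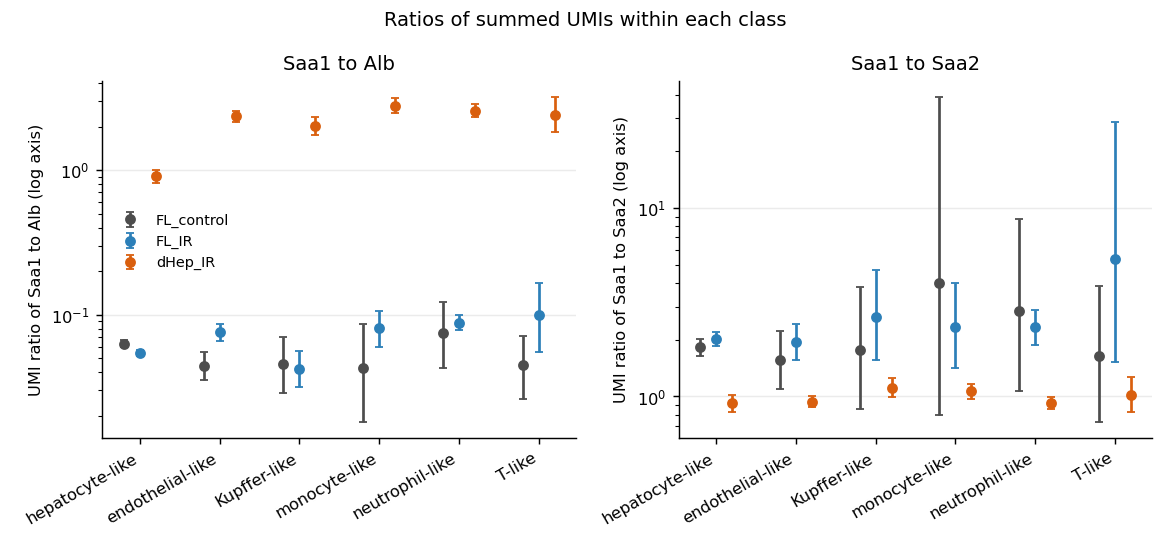
Saa1 UMIs per Alb UMI (left) and per Saa2 UMI (right), log axes, by class and library, with exact 95% intervals. Of the 6 classes plotted, every dHep_IR point on the left lies above every point of the floxed libraries, from 0.906 in hepatocyte-like cells with the shared barcodes included to 2.782 in monocyte-like cells.

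Unnamed cluster 27 had more Saa1 and Saa2 in the irradiated libraries than the named classes outside hepatocytes there. It held 8, 532 and 605 cells with a median of 2523 UMIs, and its leading genes were Saa2, Saa1, Abcc9, Kcnj8 and Ctla2a. Saa1 and Saa2 were among the genes clustered, and the naming rules left unnamed any cluster outside hepatocytes that both of them led. A cluster led by them could not be a named class, so their level there is no separate result. Saa1 stood at 72.43 CPM in FL_IR and 618 (583.6 to 653.8) in dHep_IR, with a UMI in 63.64% of the dHep_IR cells, and Saa2 at 28.84 and 667.6 CPM. Its Saa1 to Alb ratio, 0.092 in FL_IR and 2.11 in dHep_IR, lay within the range of the other classes of each library, and Alb there reached 292 CPM in dHep_IR. Saa3 stood at 18.11 and 192.2 CPM.

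Saa3 in the unirradiated library came almost wholly from unnamed cluster 16, which was nearly absent after irradiation. The cluster held 79, 0 and 1 cells and 7965 of the 8369 Saa3 UMIs of FL_control, or 5692 CPM (5568 to 5818). A Saa3 UMI was found in 96.2% of its cells, with a median of 66 and a highest cell of 455, and 0 Saa1 UMIs were found. Its leading genes were Prg4, lubricin, Alox15, an arachidonate lipoxygenase, Serpinb2, a plasminogen activator inhibitor, Lyz1 and Pf4. The named classes of FL_control with at least 50 cells ranged from 3.902 CPM in endothelial-like to 34.95 CPM in hepatocyte-like cells. The latter had 14.27 CPM without shared barcodes.

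In the irradiated libraries monocyte-like cells carried Saa3. The class numbered 256, 475 and 1166 cells, and Saa3 in it stood at 17.85, 2733 and 7309 CPM (48, 15243 and 126824 UMIs). The ratios were 153.1 (115.4 to 207.7) for FL_IR against FL_control, where 6.89% of all genes were past the fold upwards, and 2.675 (2.63 to 2.72) for dHep_IR against FL_IR, where 6.63% were. For dHep_IR against FL_control it was 409.4 (308.8 to 555.3), where 5.97% were. A Saa3 UMI was found in 7.812, 82.32 and 79.93% of monocyte-like cells, beside 3.228, 3.726 and 31.61% of endothelial-like cells. At 2000 UMIs a cell the shares were 3.03, 70.28 and 67.59% against 0.8647, 1.112 and 12.62%. Over the whole class dHep_IR differed from FL_IR in the amount per cell and hardly in the share of cells. The median was 39 against 16 UMIs and the highest cell 1730 against 312, at a median depth of 14610 against 11580 UMIs. The median of per-cell CPM was 2667 against 1474. Within cluster 28, described next, the share differed too, with at least 5 Saa3 UMIs in 90.63 against 74.11% of cells.

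Different clusters made up the class in the libraries, and Saa3 differed between them. Cluster 28, led by Vcan, F13a1, Fn1, Ccr2 and Saa3, held 0, 448 and 651 cells. Ccr2 is the receptor that draws monocytes into tissue. Saa3 there stood at 2874 (2829 to 2920) CPM in FL_IR and 7449 (7396 to 7502) in dHep_IR, with a UMI in 85.94 and 96.62% of cells and a median of 19 and 81 UMIs. Its dHep_IR to FL_IR ratio of 2.591 was close to that of the whole class. Cluster 10, led by Bcl2a1d and the MHC class II genes H2-Eb1 and H2-Ab1, held 256, 27 and 515 cells, and no monocyte or dendritic cell marker stood among its 10 leading genes. It supplied all monocyte-like cells of FL_control, so the ratio of 153.1 compares cluster 10 with mostly cluster 28. Within cluster 10 Saa3 stood at 17.85, 121.9 (84.88 to 169.5) and 7104 (7042 to 7167) CPM. Its dHep_IR cells were mixed, with a Saa3 UMI in 58.83% of them, a median of 1 UMI and a 90th percentile of 339.2.

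**Figure D5:**
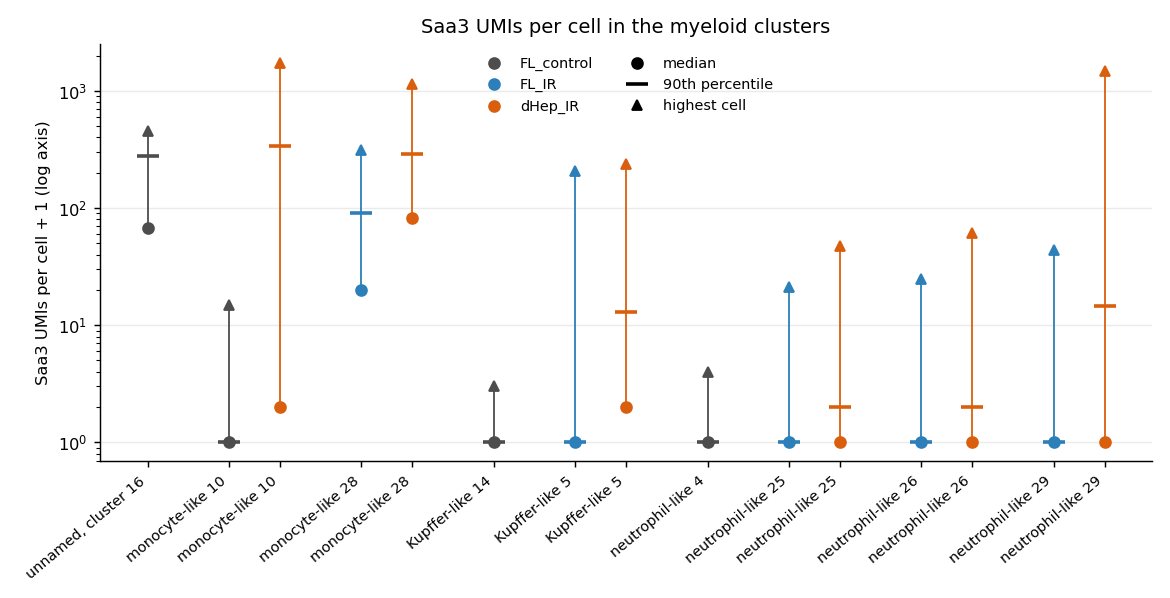
Saa3 UMIs per cell plus 1 (log axis) in unnamed cluster 16 and the myeloid clusters, by library. Circles are medians, bars 90th percentiles and triangles the highest cell. Cluster 28 has medians of 19 and 81 UMIs in FL_IR and dHep_IR, while most other clusters have a median of 0 or 1 and single cells far above it.

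Kupffer-like cells had far less Saa3 than monocyte-like cells in the irradiated libraries. It stood at 4.871, 123.5 and 825.4 CPM (27, 386 and 2800 UMIs) over 551, 452 and 364 cells, with ratios of 25.35 (17.15 to 38.97) for FL_IR against FL_control, 6.684 (6.007 to 7.453) for dHep_IR against FL_IR and 169.4 (116.2 to 257.6) for dHep_IR against FL_control, where 6.22% of genes were past the fold upwards. Without the cell richest in Saa3 in each library the log2 value of the first ratio was 3.72 in place of 4.64, and the second stood at 3.71 in place of 2.74. A few cells carried it. In FL_IR 1 cell held 206 of the 386 UMIs, and a Saa3 UMI was found in 7.965% of cells. In dHep_IR a UMI was found in 57.97%, and 28 cells with at least 20 UMIs held 79.46% of them. The summed level of the 9 Kupffer markers was 35810, 38360 and 35410 CPM and that of the 10 monocyte markers 8558, 4569 and 6092 CPM, all markers detected in each library. The part of monocyte RNA or mixed droplets in the Saa3 of this class was not tested.

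Neutrophil-like cells differed in Saa3 mainly in dHep_IR. It stood at 17.84, 20.11 and 264.1 CPM (30, 503 and 6613 UMIs) over 459, 2342 and 1850 cells, and the FL_IR to FL_control ratio of 1.127 (0.7798 to 1.689) had an interval that includes 1, where 6.04% of genes were past the fold upwards. Without cluster 29 its log2 value was -1.09 in place of 0.15, and other alternatives, given below, moved it in both directions. Without all shared barcodes Saa3 stood at 10.14, 20.12 and 206.6 CPM, and 13 of the 30 FL_control UMIs lay in 5 such cells. The dHep_IR to FL_IR ratio was 13.13 (11.99 to 14.41), where 3.83% of all genes were past the fold upwards and 2.78% downwards. The dHep_IR to FL_control ratio was 14.8 (10.36 to 21.96), where 6.8% were upwards and 33.7% downwards, and its log2 value of 3.86 was 1.04 without cluster 29. In dHep_IR 35 cells with at least 20 Saa3 UMIs held 84.27% of it. Those cells had more of the transcripts Fn1 (125.3 against 4.652 CPM) and Csf1r (106.5 against 6.715 CPM) than the other neutrophil-like cells. The neutrophil transcript S100a8 was lower in them (82850 against 164900 CPM). The monocyte marker Ly6c2 was lower too (344.6 against 604.3 CPM), and Lyz2 stood at 911.5 against 786.7 CPM. In FL_IR the 6 cells with at least 20 Saa3 UMIs had Fn1 at 0 against 5.647 CPM and Csf1r at 47.53 against 13.86 CPM. Cluster 29, led by Cxcl3, Acod1 and Cxcl2, held 96.22 CPM in FL_IR and 2053 in dHep_IR. The larger clusters 25 and 26 held 52.6 and 32.4 CPM in dHep_IR, below the 64.35 CPM of endothelial-like cells there. The part of other cells' RNA in neutrophil-like Saa3 was not tested. The 17 dHep_IR cells with a shared barcode held 1520 of the 6613 UMIs.

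Among the cytokines that induce these genes, most of those measured were past the fold upwards in Kupffer-like cells of FL_IR against FL_control, and the opposite held in neutrophil-like cells. In Kupffer-like cells Il6 stood at 15.15, 90.22 and 321.6 CPM, Il1a at 87.86, 200.9 and 533.5, Il1b at 236.7, 144.9 and 535.9 and Tnf at 30.31, 123.2 and 206.9. Of the inducing cytokines measured, 3 of 4 were past the fold upwards in FL_IR against FL_control (median log2 ratio 1.607, all genes -0.0043, with 6.52% of all genes upwards) and 3 of 6 in dHep_IR against FL_IR (median 1.078, all genes -0.1659, with 2.77% upwards). Il1b was the exception in the first. In neutrophil-like cells 0 of 4 were past it upwards and 3 downwards in FL_IR against FL_control (median -1.944, all genes -0.5763, with 29.2% of all genes downwards). In dHep_IR against FL_control 0 of 5 were upwards and 3 downwards there, where 6.8% of all genes were upwards and 33.7% downwards. In monocyte-like cells 2 of 6 were past it upwards in dHep_IR against FL_IR, where 6.63% of all genes were, among them Il1a at 26.35 and 63.34 CPM. Genes of the factors that act on the promoters were listed too. Of these 12 transcription genes in Kupffer-like cells, 4 were past the fold upwards in FL_IR against FL_control, beside 6.52% of all genes, with Socs3, the feedback inhibitor of STAT3 signalling, at 25.44, 316.1 and 357 CPM and Cebpd, C/EBP delta, at 77.94, 266.2 and 177.5. In Kupffer-like cells 7.59% of all genes were past the fold downwards in that comparison and 0 of the 12. In monocyte-like cells 0 of the 12 were past it upwards and 1 downwards, where 2.99% of all genes were, in dHep_IR against FL_IR, while Saa3 was 2.675 times as high. In neutrophil-like cells 6 of the 12 were past it downwards in FL_IR against FL_control, and 10 of the 12 in dHep_IR against FL_control, where 33.7% of all genes were.

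Genes of receptors reported to bind serum amyloid A differed between the monocyte-like cells of FL_IR and FL_control, where 6 of 10 were past the fold upwards and 1 downwards (median log2 ratio 1.092, all genes -0.1248, with 6.89% of all genes upwards and 16.6% downwards). Fpr2, the formyl peptide receptor known to bind serum amyloid A, stood at 12.65, 172.6 and 121.2 CPM and Fpr1 at 3.347, 58.8 and 40.28. Tlr4 stood at 7.438, 47.33 and 39.94 CPM. The scavenger receptor Cd36 was lower, at 124.6, 13.45 and 12.91 CPM. In dHep_IR against FL_IR 0 of 11 receptors were past the fold either way, where 6.63% of all genes were upwards and 2.99% downwards. These values carry the same difference in cluster make-up as Saa3 in this class.

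Other acute-phase genes differed with Saa3 between FL_control and FL_IR and less between the irradiated libraries. The monocyte-like values below carry the same difference in cluster make-up as Saa3 in this class. Between FL_control and FL_IR they mostly set different clusters against each other. The part of cluster make-up in the counts of these lists was not tested. In monocyte-like cells 12 of 17 were past the fold upwards and 2 downwards, where 6.89% of all genes were upwards and 16.6% downwards, in FL_IR against FL_control (median log2 ratio 1.392), with Lcn2, the iron-siderophore binder lipocalin 2, at 11.16, 2280 and 1997 CPM and Serpina3n, a serine protease inhibitor, at 0.372, 6.454 and 9.221. In dHep_IR against FL_IR 3 of 21 were past it upwards and 2 downwards, where 6.63% of all genes were upwards and 2.99% downwards. Genes of inflammatory monocytes, beside the same shares of all genes, had 13 of 18 upwards and 2 downwards and then 3 of 19 in each direction (median log2 -0.159, all genes -0.0412). S100a8, a calprotectin subunit, stood at 90.75, 6048 and 12390 CPM and Chil3, a chitinase-like protein, at 985.2, 22540 and 9696 CPM in monocyte-like cells. Saa3 was past the fold upwards between the irradiated libraries, as were 3 of these 19 genes. It was chosen with its myeloid UMIs known, so its place beside this list is a description.

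In endothelial-like cells 17 of 22 acute-phase genes were past the fold upwards and 1 downwards in FL_IR against FL_control (median log2 ratio 1.711, all genes -0.094, with 9.31% of all genes upwards and 15.8% downwards), and 3 of 22 upwards in dHep_IR against FL_IR, where 1.3% of all genes were. Lcn2 stood at 0.557, 121.5 and 272 CPM there and Serpina3n at 0.883, 67.13 and 187.6. Of the negative acute-phase genes in dHep_IR against FL_IR, 6 of 7 were past the fold downwards in endothelial-like cells (1.88% of all genes), Kupffer-like cells (5.86%), monocyte-like cells (2.99%) and neutrophil-like cells (2.78%), and 5 of 6 in T-like cells (2.46%). The exception in neutrophil-like cells, Trf, transferrin, stood at 53.7 CPM in FL_IR and 66.82 in dHep_IR. In FL_IR against FL_control 3 of 7 were past it upwards and 0 downwards in T-like cells, where 3.02% of genes were upwards and 6.21% downwards. Upwards in that comparison were also 3 of 7 in Kupffer-like cells (6.52% of all genes) and 4 of 7 in endothelial-like cells (9.31%). In endothelial-like cells Rbp4 stood at 16.77, 13.46 and 1.479 CPM, Ttr at 36.42, 19.65 and 4.71 and Apoa1 at 26.2, 52.94 and 8.489. These are hepatocyte transcripts, and the part of free RNA in their levels was not tested.

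Over all kept cells 10 of 23 acute-phase genes were past the fold upwards and 2 downwards in FL_IR against FL_control (median log2 ratio 0.895, all genes -0.598, with 6.91% of all genes upwards and 32.2% downwards). In dHep_IR against FL_IR 3 of 23 were past it upwards and 10 downwards, and 5 of 7 negative acute-phase genes were downwards, where 5.75% of all genes were upwards and 3.66% downwards. Saa4, counted in the acute-phase list though constitutive, stood at 2.857, 4.804 and 0.673 CPM (138, 261 and 48 UMIs). Its dHep_IR to FL_IR ratio was 0.1401 (0.1007 to 0.1912). In FL_IR 133 of its UMIs and 24572 of the 40266 Alb UMIs lay in 3 hepatocyte-like cells with shared barcodes. Without shared barcodes Saa4 stood at 2.846, 2.387 and 0.634 CPM, and the list counts were not recomputed without them. The neighbours of Saa4, Saa1 and Saa3, were 2.22 and 6.391 times as high in dHep_IR against FL_IR. Hamp, the iron hormone hepcidin, had a log2 ratio of -2.13 and Rbp4 of -4.84. Fewer hepatocytes and less of these transcripts per hepatocyte cannot be told apart in this sum.

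The genes whose pattern was most like each member were sought over 22 class and library units of at least 50 cells, among 13256 genes, by Pearson's r of log2(CPM + 1), as a description of units that share libraries. For Saa1 they were Saa2 (0.962), Orm2 (0.898), Hpx (0.896), Orm1 (0.869) and Fgb (0.823), and for Saa2 they were Saa1, Orm2 (0.925), Hpx (0.822), Orm1 (0.809) and Serpina3n (0.766). All of these encode secreted plasma proteins of the acute phase, and most are known as liver transcripts. Saa3 had a different set, led by Gm32089 (0.874), Gm807 (0.865), Ms4a4a (0.838), Gm4117 (0.837) and Adora2b (0.812). The first 2 rest on few UMIs. In monocyte-like cells of FL_IR and dHep_IR Gm32089 had 28 and 103 UMIs and Gm807 had 19 and 71. Ms4a4a, a membrane protein gene of myeloid cells, stood at 2.603, 15.6 and 18.96 CPM in monocyte-like cells. Saa3 and Saa1 had an r of 0.503, and Saa1 and Alb an r of 0.150.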

How the data were processed

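The values used are raw UMI counts, deposited as whole numbers for each gene and barcode. The authors made these counts with Cell Ranger 6.1.1 on mm10, and CASAVA 1.8 and Seurat 4.0.3 are also named, per the submitters' processing notes. The annotation version and how reads matching several genes were counted are not given in the sources used here.

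Barcodes were kept at a minimum of 500 UMIs and 250 genes and a mitochondrial share of up to 25%. Scrublet in scanpy 1.11.5 (expected rate 6%) then removed 160, 235 and 291 doublets (2.418, 3.466 and 3.853%). The cells of all libraries were clustered together on 2000 variable genes, which include Saa1, Saa2 and Saa3, with 30 components, 15 neighbours and Leiden resolution 1 (igraph 0.11.9), giving 30 clusters. Clusters were called X-like from fixed marker lists by rules set after the clusters had been seen, so class names are rebuilt here. A rule also left a cluster outside hepatocytes unnamed where Saa1 and Saa2 both led it. Free RNA was not removed.

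Raw counts of a class were added up within each library and given as CPM, not divided by length since each UMI marks 1 transcript end. Intervals are 95% exact Poisson for a sum, Clopper-Pearson for a share and conditional for a ratio, and a sum of 0 is given a floor of 3 counts. There is no replicate check, and no p-value is given. A gene was measured in a comparison with at least 20 UMIs over its libraries, and called past the fold at a ratio of at least 2, or at most 0.5, with an interval excluding 1. Log2 ratios had 0.5 added to each count. TMM factors came from edgeR 4.0.16 under R 4.3.3. The counting steps were tested on simulated data. Promoter windows come from RefSeq.

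Genes named were the members, up to 4 of each list with the largest log2 ratio among those with at least 20 UMIs, the 5 most like each member, the reference transcripts Alb, Apoa1, Ttr and Serpina1c, markers and Gsdmd. Trf and the genes named as leading a cluster were chosen after their values were seen. The members and lists were chosen with earlier results of these data known. Alternatives changed the filter, doublets, scaling, resolution, single cells and shared barcodes.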

Additional observations from a re-analysis of the deposited data

Results flagged for a closer look

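Saa3 reached 5692 CPM in unnamed cluster 16 of FL_control, a group of 79 cells that enters no comparison between libraries because FL_IR has 0 and dHep_IR 1 of its cells. It stands out because no named class of FL_control had a level near it, and the highest there was 34.95 CPM in hepatocyte-like cells. Without shared barcodes those cells had 14.27 CPM, below the 16.75 CPM of monocyte-like cells.

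Saa1 reached 618 CPM and Saa2 667.6 CPM in unnamed cluster 27 of dHep_IR, which the comparisons by class do not use. Under the naming rules both genes leading it were enough to leave it unnamed. The same cluster held 0 UMIs of both genes in the 8 cells of FL_control.

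Saa1 had 5559 UMIs in the 6 Alb-rich barcodes of dHep_IR that the limit on mitochondrial share left out, against 78 in FL_control and 1766 in FL_IR. That is more than the 742 UMIs of the kept hepatocyte-like cells of dHep_IR.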

How the results depend on the processing

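Each log2 ratio was recomputed for comparison A (FL_IR against FL_control), B (dHep_IR against FL_IR) and C (dHep_IR against FL_control), and sets of 3 values stand in that order. The reported values were Saa1 over all cells 0.71, 1.15 and 1.86, Saa2 over all cells 0.49, 2.28 and 2.76, Saa3 in Kupffer-like cells 4.64, 2.74 and 7.38, Saa3 over all cells 0.81, 2.68 and 3.48, Saa3 in monocyte-like cells 7.24, 1.42 and 8.66, Saa3 in neutrophil-like cells 0.15, 3.71 and 3.86. Of 157 alternative values for these 18 results, 152 had the direction of the reported value. Values that left the counting interval were these. With a stricter cell filter (at least 1000 UMIs and 500 genes, at most 10% mitochondrial UMIs), values were Saa1 over all cells at 1.19, 2.37 and 3.56, Saa2 over all cells at 1.02, 3.47 and 4.49, Saa3 over all cells at 2.70 for B, Saa3 in monocyte-like cells at 1.35 for B, Saa3 in neutrophil-like cells at 0.92 and 4.64 for A and C. With TMM factors, values were Saa1 over all cells at 1.28 and 2.49 for A and C, Saa2 over all cells at 1.06 and 3.39 for A and C, Saa3 over all cells at 1.38, 2.73 and 4.11, Saa3 in monocyte-like cells at 1.48 for B, Saa3 in neutrophil-like cells at 0.998 and 4.80 for A and C. As a mean of per-cell CPM, values were Saa1 over all cells at 0.59, 2.46 and 3.05, Saa2 over all cells at 0.12, 3.59 and 3.71, Saa3 over all cells at 1.38, 2.59 and 3.97, Saa3 in monocyte-like cells at 6.01, 1.36 and 7.37, Saa3 in Kupffer-like cells at 1.51, 4.02 and 5.53, Saa3 in neutrophil-like cells at -0.98 and 2.62 for A and C. Without the cell richest in the gene in each library, values were Saa1 over all cells at 1.68, 1.43 and 3.11, Saa2 over all cells at 1.61, 2.54 and 4.15, Saa3 over all cells at 0.86 and 3.55 for A and C, Saa3 in monocyte-like cells at 7.70 and 9.13 for A and C, Saa3 in Kupffer-like cells at 3.72 and 3.71 for A and B, Saa3 in neutrophil-like cells at 0.82 and 3.48 for A and B. Without all shared barcodes, values were Saa1 over all cells at -0.35, 2.30 and 1.96, Saa2 over all cells at -0.51, 3.41 and 2.90, Saa3 in neutrophil-like cells at 0.95 and 3.36 for A and B. Over all deposited barcodes, values were Saa1 over all cells at 1.38, 1.42 and 2.80, Saa2 over all cells at 1.05, 2.47 and 3.52, Saa3 over all cells at 0.96, 2.64 and 3.60. With doublets kept, values were Saa3 over all cells at 0.91, 2.64 and 3.55, Saa3 in monocyte-like cells at 1.47 for B, Saa3 in neutrophil-like cells at 3.52 for B. At resolution 2, values were Saa3 in monocyte-like cells at 6.61, 1.49 and 8.10. Without cluster 10, values were Saa3 in monocyte-like cells at 1.37 for B. Without the smaller entry of each shared barcode, values were Saa3 in neutrophil-like cells at 0.95 and 4.66 for A and C. Without cluster 29, values were Saa3 in neutrophil-like cells at -1.09, 2.13 and 1.04. The 2 reversals are Saa1 and Saa2 in A without all shared barcodes. The FL_IR to FL_control ratio of Saa3 in neutrophil-like cells changed sign with doublets kept too (-0.01), and its interval included 0 to begin with. The other 75 values stayed within the interval. Leaving out the richest cell, all shared barcodes, the smaller entries, cluster 10 or cluster 29, and using all deposited barcodes, were chosen after seeing the data. TMM added 0.57, 0.06 and 0.63 over all cells, 0.22, 0.06 and 0.28 in monocyte-like, -0.0036, 0.14 and 0.14 in Kupffer-like and 0.85, 0.09 and 0.93 in neutrophil-like cells to every gene. With a minimum of 100 UMIs, 6.29, 4.19 and 6.67% of genes were past the fold upwards over all cells in A, B and C. The cause of each shift was not tested. No paired analysis was possible because each group has 1 library, so leaving out a replicate was not possible either. Depth limits Saa1 and Saa2 outside hepatocytes, where FL_control classes held few UMIs, as the 22 Saa1 UMIs of 545 Kupffer-like cells after the smaller entries are left out.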

Other observations

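At resolution 2 the hepatocyte-like cells of FL_IR fell into a cluster of 9 cells with Saa1 at 5341 CPM (1475 UMIs), shared with all such cells of FL_control and dHep_IR, and a cluster of 33 cells found in FL_IR alone with Saa1 at 786.1 CPM (136 UMIs). Saa2 stood at 2568 and 526 CPM in them and Alb, albumin, at 103200 and 6156 CPM. Kept hepatocyte-like cells had a median mitochondrial share of 0.329, 0.0402 and 14.1% in FL_control, FL_IR and dHep_IR.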
